A study of Rattus norvegicus with 12 samples.

Results

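GEC(Reln+) is the smallest of 3 endothelial clusters of the ZSF1 rat kidney in a single-nucleus RNA sequencing (snRNA-seq) data set. Its members are the nuclei that carry the name GEC(Reln+) in the low-level cluster annotation deposited by the authors, in which GEC stands for glomerular endothelial cell. They were 393 of 217132 nuclei, and each of the 12 rats contributed between 10 and 60 of them. The name was taken as deposited, because expression of single genes, Reln and Pecam1 included, was not analysed here. Whether these nuclei come from glomeruli was therefore not tested. What could be checked is that all 393 members were also placed in the high-level endothelial type, with 0 in another type.

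The kidneys came from male ZSF1 rats, and every sample carries the same genotype label, ZSF1-LeprfaLeprcp/Crl, so that lean and obese rats are told apart by their phenotype label. Lean rats received neither drug nor vehicle. Obese rats started at an age of 13 to 14 weeks and were dosed for 12 weeks, to an age of 25 to 26 weeks, with vehicle (called untreated obese below), with the sGC activator BAY 1101042 (runcaciguat, sGCact) at 3 mg/kg given 2 times a day, or with the sGC stimulator BAY 1165747 (sGCstim) at 3 mg/kg given 1 time a day. From each group 3 rats were sequenced, the lean group of the study having 6 and every obese group 10. Lean and untreated obese rats therefore differed in vehicle dosing as well as in phenotype, and the leptin receptor alleles act in the whole animal, not in endothelium alone. Nuclei were released from frozen pieces of kidney, and the part of the kidney in each piece is not given in the sources used here.

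Endothelial cells line the vessels of the kidney, and those of the glomerulus are fenestrated and form the inner layer of the filtration barrier. They make nitric oxide with endothelial nitric oxide synthase (eNOS), and nitric oxide activates soluble guanylate cyclase (sGC) in neighbouring cells, which then produce cGMP. An sGC stimulator acts on the enzyme that holds its reduced haem and works together with nitric oxide, whereas an activator acts on the oxidised or haem-free enzyme. Reln encodes reelin, a large secreted matrix glycoprotein best known from neuronal migration that some endothelial cells also make. Pecam1 encodes CD31, an adhesion molecule of endothelial junctions, and Meis2, after which the main endothelial cluster is named, encodes a homeobox transcription factor.

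The rats yielded between 10488 and 43484 nuclei and between 11898496 and 49272672 unique molecular identifiers (UMIs, the count of captured RNA molecules). Libraries stood apart in 2 ways. RK9_4 held 43484 nuclei, and of these 3456 lay outside the proximal tubule (PT). Podocytes of RK7_4, RK9_4 and RK61_4 had median UMIs of 590, 934.5 and 842, against 2156 to 4203.5 in the other 9 rats. GEC(Reln+) nuclei of these libraries had median UMIs of 768.5, 1896 and 1461, so that only RK7_4 was low in this cluster too. Within GEC(Reln+), 0 cell barcodes were shared between rats, and 26 members (6.62%) had a barcode that also occurred in another rat in any cluster, against 5.42% of all nuclei.

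On the UMAP, GEC(Reln+) formed a compact group apart from the other endothelial nuclei. The members lay at a median distance of 0.246 UMAP units from the median of the cluster, and 385 of 393 lay within 1 unit. The median of the cluster was 4.07 units from that of GEC(Meis2+) and 3.81 units from that of AA/LA/EA, the third endothelial cluster, whose abbreviation is kept as deposited. Among the 15 nearest nuclei of each member, 97.0% of all links led to another GEC(Reln+) nucleus, 1.19% to the proximal tubule cluster PTnov1 and 0.831% to GEC(Meis2+). All 15 neighbours were GEC(Reln+) nuclei for 331 members. The medians of the 12 rats lay within 0.143 units of the cluster median. The authors made the coordinates after batch correction with Harmony, so this closeness describes the corrected map and does not test agreement between rats. Distances on a UMAP have no unit, and the coordinates were made from the same counts as the clusters, so these values describe the annotation and do not test it.

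**Figure D1:**
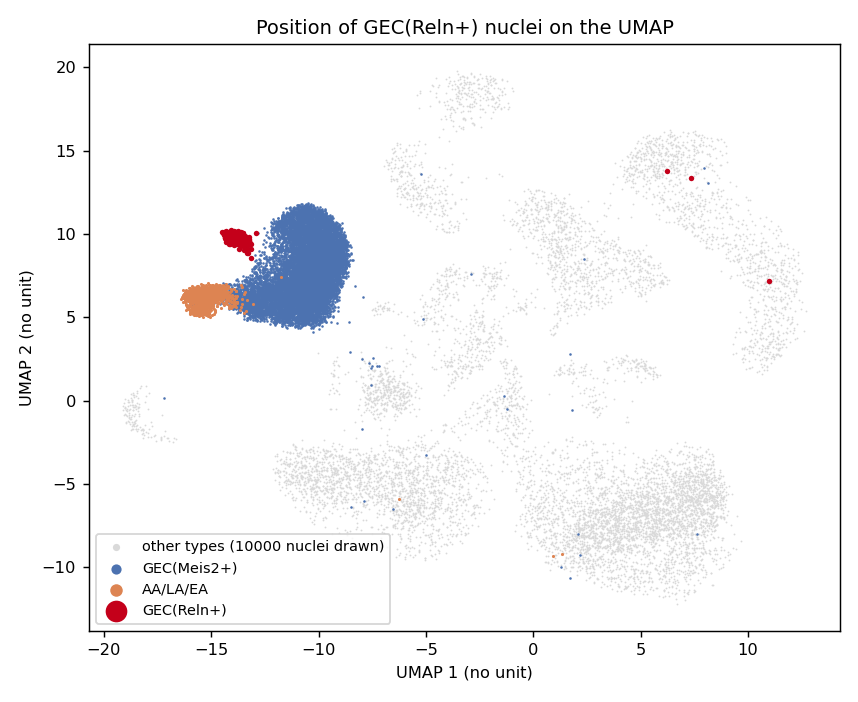
Position of the GEC(Reln+) nuclei (red) among the nuclei of the GEC(Meis2+) (blue) and AA/LA/EA (orange) clusters and a seeded draw of 10000 nuclei of other types (grey), with the 2 UMAP coordinates, which have no unit, on the axes. Of the 393 members, 390 lie within 5 units of the cluster median and 3 lie among tubular nuclei.

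The 3 members that lay apart came from RK1_4, RK5_4 and RK16_4 and were between 20.6 and 25.1 units away from the cluster median. The nearest nuclei of the members of RK1_4 and RK16_4 were mostly of the distal convoluted tubule cluster DCT, with 11 and 15 of 15 neighbours. All 15 neighbours of the member of RK5_4 belonged to CNT/PC, a connecting tubule and principal cell cluster. These 3 nuclei held 3315, 1253 and 2927 UMIs in RK1_4, RK16_4 and RK5_4. They were kept, since the rule takes the annotation as deposited.

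GEC(Reln+) made up 0.181% of all nuclei and was the smallest of the 25 low-level clusters but 1. It held 2.83% of the 13909 nuclei of the endothelial type, beside 89.9% in GEC(Meis2+) and 7.24% in AA/LA/EA. The largest contribution of a single rat was 15.3% of the cluster, from RK43_4 with 60 nuclei. Lean rats contributed 90 members, untreated obese rats 76, sGCact-treated rats 141 and sGCstim-treated rats 86.

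The first question was whether GEC(Reln+) made up a different part of all nuclei in obese than in lean kidneys. Lean rats RK1_4, RK3_4 and RK5_4 had shares of 0.270%, 0.178% and 0.106% of all nuclei. Untreated obese rats RK7_4, RK9_4 and RK16_4 had 0.0947%, 0.0368% and 0.381%. The obese values thus enclosed the lean ones, with the lowest share of the series in RK9_4. Lean rats averaged 0.185 ± 0.0819% and untreated obese rats 0.171 ± 0.184% (SD, n = 3 each). In a limma fit to the log odds of the share over all 25 clusters, the obese minus lean difference was -0.44 (SE 0.575, 95% interval -1.68 to 0.80, adjusted p = 0.574, natural log), and the exact two-sided permutation test over rats gave p = 0.9. The threshold, an adjusted p of 0.05, was passed by 3 of 25 clusters (12.0%), each with a smaller share in obese rats, and the median estimate over the 25 clusters was -0.66. The spread among the 3 untreated obese rats was 53.0 times that of counting error alone (chi-square over its degrees of freedom), against 6.11 times in lean rats. With 3 rats against 3, permutation cannot give a p below 0.1. Nothing in the labels ties the rats to separate litters or cages. The limma p-values set a difference against a spread that was estimated from all 12 rats and shared in part between clusters.

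Nuclei outside the proximal tubule numbered 2551 of 10556 in RK7_4 and 3456 of 43484 in RK9_4, but 8161 of 13120 in RK16_4, and on this denominator the untreated obese rats lay closer together. Of the nuclei outside the proximal tubule, GEC(Reln+) made up 0.440%, 0.328% and 0.172% in RK1_4, RK3_4 and RK5_4, and 0.392%, 0.463% and 0.613% in RK7_4, RK9_4 and RK16_4. The obese rat was the higher in 8 of 9 comparisons between single rats, but RK7_4 stayed below RK1_4, and the exact permutation test gave p = 0.2. The group means were 0.313 ± 0.135% in lean and 0.489 ± 0.113% in untreated obese rats (SD, n = 3 each). The spread of the untreated obese rats fell to 1.12 times counting error on this denominator.

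Within the endothelium, GEC(Reln+) made up a larger share in untreated obese than in lean rats, although passing the threshold depended on the fit. It made up 2.15%, 1.42% and 1.04% of endothelial nuclei in the lean rats RK1_4, RK3_4 and RK5_4 (45 of 2094, 27 of 1897 and 18 of 1731 nuclei). In the untreated obese rats RK7_4, RK9_4 and RK16_4 it made up 3.13%, 3.43% and 3.36% (10 of 319, 16 of 467 and 50 of 1486 nuclei). The groups did not overlap, so the obese rat was the higher in 9 of 9 comparisons between single rats. Here and below, such a separation of rats was not counted over the other clusters, so no share of clusters stands beside it. The means were 1.54 ± 0.563% and 3.31 ± 0.154% (SD, n = 3 each), a ratio of 2.15. The log odds rose by 0.838 (SE 0.199, 95% interval 0.394 to 1.28), an odds ratio of 2.31 (1.48 to 3.61), with an adjusted p of 0.0217 by limma over the 23 clusters of types that hold at least 2 clusters. Of these 23 clusters 2 (8.70%) passed. The other was the proximal tubule cluster PTnov2, named after its values were seen, which was lower within its type. The exact permutation test gave p = 0.1, the smallest that 3 rats against 3 allow.

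**Figure D2:**
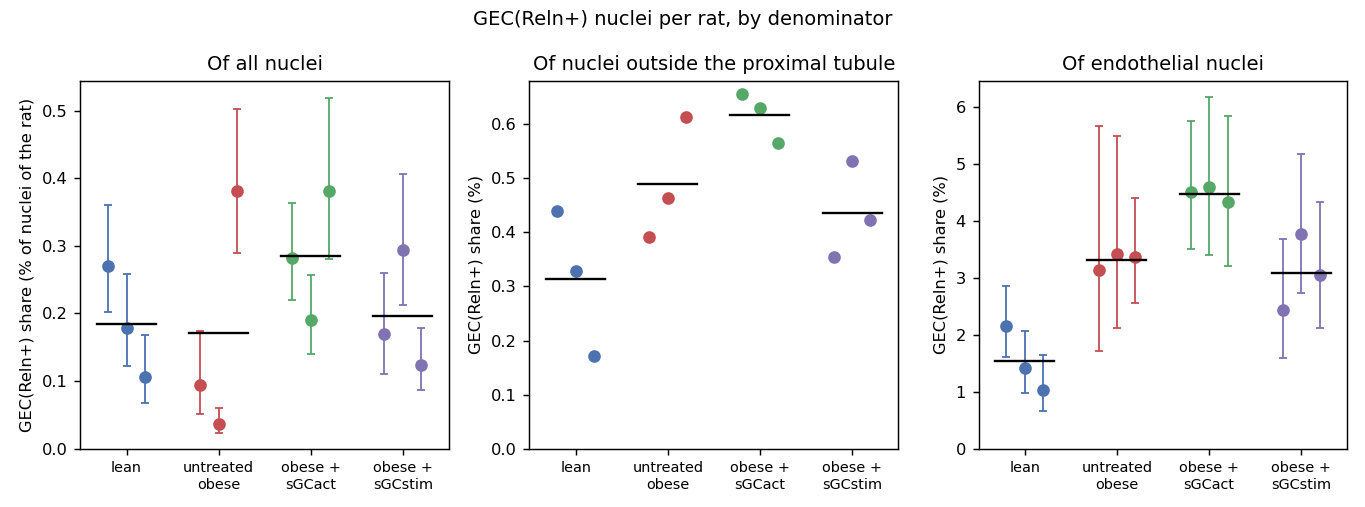
GEC(Reln+) nuclei of each rat in percent of all nuclei (left), of nuclei outside the proximal tubule (middle) and of endothelial nuclei (right), with the rats of each group in the order RK1_4, RK3_4, RK5_4, then RK7_4, RK9_4, RK16_4, then RK43_4, RK45_4, RK46_4, then RK57_4, RK58_4, RK61_4. Points are rats, black lines are group means, and bars on the left and right are 95% Wilson intervals. On the right the 3 lean rats lie between 1.04% and 2.15% and the 9 obese rats between 2.43% and 4.60%.

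The precision of these shares was limited by the number of members in each rat. The 95% Wilson intervals, which cover counting error only, were 1.71% to 5.67% for RK7_4 with 10 members, 2.12% to 5.49% for RK9_4 with 16 and 2.56% to 4.41% for RK16_4 with 50. For lean rats they were 1.61% to 2.86% for RK1_4, 0.980% to 2.06% for RK3_4 and 0.659% to 1.64% for RK5_4. The lean rats differed among themselves by 3.97 times counting error, while the 3 untreated obese rats were closer to each other than counting error gives on average (0.0274 times). The call was lost when any 1 of 4 rats was left out, with limma adjusted p = 0.0653 without RK3_4, 0.0951 without RK5_4, 0.0832 without RK9_4 and 0.0601 without RK16_4. It was also lost when the spread came from the lean and untreated obese rats alone (adjusted p = 0.206 by limma), on the arcsine square root scale (0.216), and without RK7_4, RK9_4 and RK61_4 (0.130), while over the 12 fits that each left out 1 rat the log odds estimate ranged from 0.667 to 1.03. A share cannot show whether GEC(Reln+) nuclei were more numerous or other endothelial nuclei fewer, and nuclei lost in preparation cannot be told apart from nuclei absent from the tissue.

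The other endothelial nuclei did not move alike in the 3 untreated obese rats. GEC(Meis2+) made up 10.8%, 11.6% and 9.40% of all nuclei in RK1_4, RK3_4 and RK5_4, and 2.76%, 0.977% and 10.0% in RK7_4, RK9_4 and RK16_4. AA/LA/EA made up 1.49%, 0.732% and 0.733% in these lean rats, and 0.171%, 0.0598% and 0.930% in these obese rats. Both clusters were low in RK7_4 and RK9_4, whereas RK16_4 lay in the lean range of both. Whether GEC(Reln+) moved differently from each of them was tested as the ratio of nuclei in each rat.

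Per 100 GEC(Meis2+) nuclei there were 2.50, 1.53 and 1.13 GEC(Reln+) nuclei in RK1_4, RK3_4 and RK5_4, and 3.44, 3.76 and 3.81 in RK7_4, RK9_4 and RK16_4. The groups did not overlap, and their means were 1.72 ± 0.703 and 3.67 ± 0.202 (SD, n = 3 each). The log2 ratio was 1.18 higher in untreated obese rats (SE 0.404, 95% interval 0.29 to 2.07), a factor of 2.27, which missed the threshold after adjustment over the 24 other clusters (limma adjusted p = 0.0844, unadjusted p = 0.0141). Only the fit without RK1_4 passed among the fits that left out 1 rat (adjusted p = 0.0354). Since GEC(Meis2+) held 89.9% of endothelial nuclei, this ratio largely restates the endothelial share, with the adjustment made over a different set of fits.

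Per 100 AA/LA/EA nuclei there were 18.1, 24.3 and 14.5 GEC(Reln+) nuclei in RK1_4, RK3_4 and RK5_4, and 55.6, 61.5 and 41.0 in RK7_4, RK9_4 and RK16_4. Every obese rat was above every lean rat, with means of 19.0 ± 4.97 and 52.7 ± 10.6 (SD, n = 3 each). The log2 ratio rose by 1.48 (SE 0.398, 95% interval 0.60 to 2.36, limma adjusted p = 0.0417), a factor of 2.79 (1.52 to 5.13). It was 1 of 2 ratios that passed among 24 (8.33%), the other being the ratio to PTnov2. Of the 24 estimates 15 were above 0 with a median of 0.42. All 24 ratios share the GEC(Reln+) count of each rat, so they are not 24 separate features. The denominators were small, with 18 and 26 AA/LA/EA nuclei in RK7_4 and RK9_4, and 3 of the 12 fits that left out 1 rat kept the call, those without RK16_4, RK58_4 or RK61_4, with log2 ratios between 1.31 and 1.68 over all 12. Fitted to the lean and untreated obese rats alone, the ratio had a limma adjusted p of 0.138.

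Between the 2 other endothelial clusters the ratio showed no detectable difference. There were 13.8, 6.31 and 7.80 AA/LA/EA nuclei per 100 GEC(Meis2+) nuclei in RK1_4, RK3_4 and RK5_4, and 6.19, 6.12 and 9.28 in RK7_4, RK9_4 and RK16_4. These ranges overlapped, and the exact permutation test gave p = 0.5 (means 9.32 and 7.20).

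**Figure D3:**
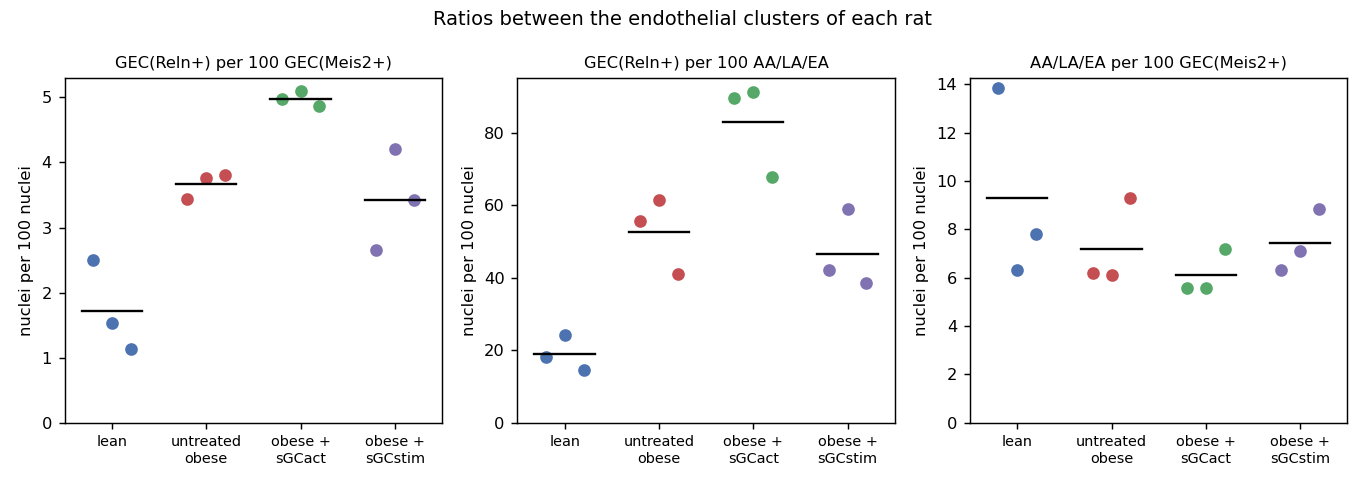
Nuclei of one endothelial cluster per 100 nuclei of another in each rat, with GEC(Reln+) per 100 GEC(Meis2+) (left), GEC(Reln+) per 100 AA/LA/EA (middle) and AA/LA/EA per 100 GEC(Meis2+) (right). Points are rats in the order of their numbers and lines are group means. Lean rats lie below all obese rats in the left and middle panels, and among the others in the right panel apart from RK1_4 at 13.8.

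**Figure D4:**
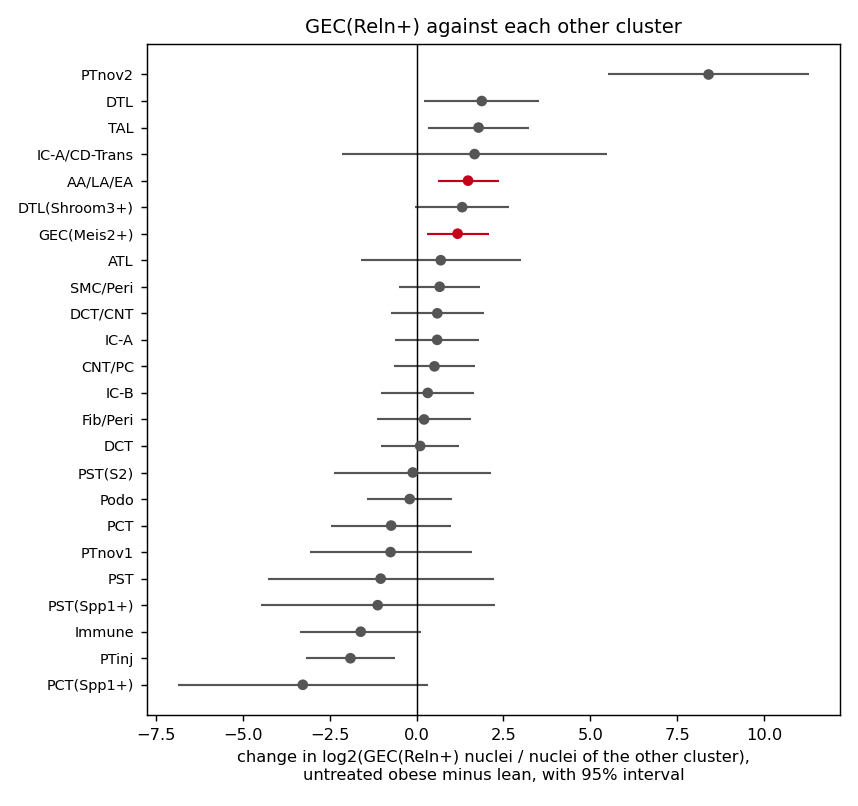
Difference in the log2 ratio of GEC(Reln+) nuclei to the nuclei of each of the 24 other clusters, untreated obese minus lean, with the 95% interval of the limma fit (horizontal axis, log2 units). The 2 endothelial clusters are in red, at 1.48 for AA/LA/EA and 1.18 for GEC(Meis2+), and 15 of the 24 estimates lie above 0.

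The next question was whether the share differed after sGCact or sGCstim. Of endothelial nuclei, GEC(Reln+) made up 4.50%, 4.60% and 4.34% in the sGCact-treated rats RK43_4, RK45_4 and RK46_4 (60 of 1333, 41 of 891 and 40 of 922 nuclei). It made up 2.43%, 3.77% and 3.05% in the sGCstim-treated rats RK57_4, RK58_4 and RK61_4 (21 of 863, 36 of 954 and 29 of 952 nuclei). The 3 sGCact-treated rats were the highest of the 12, and the sGCstim-treated rats enclosed the untreated obese range of 3.13% to 3.43%.

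Against untreated obese rats the sGCact group mean was 4.48 ± 0.133% (SD, n = 3), a ratio of 1.35, with the treated rat higher in 9 of 9 comparisons. The log odds differed by 0.297 (SE 0.199, 95% interval -0.147 to 0.742), an odds ratio of 1.35 (0.863 to 2.10), which did not pass (limma adjusted p = 0.764, exact permutation p = 0.1). In this comparison limma called 0 of the 23 clusters (0%) and edgeR 0, and the unadjusted limma p was under 0.05 for 0 of them. The spread among the sGCact-treated rats was 0.0377 times counting error, and their Wilson intervals ran from 3.20% to 6.18%, so each of them overlapped those of the untreated obese rats.

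For sGCstim the mean was 3.08 ± 0.671% (SD, n = 3). The difference in log odds from untreated obese rats was -0.10 (SE 0.199, 95% interval -0.543 to 0.345), an odds ratio of 0.906 (0.581 to 1.41), with a limma adjusted p of 0.852 and an exact permutation p of 0.7. Limma called 0 of the 23 clusters here (0%) and edgeR 0, with 0 unadjusted limma p-values under 0.05. The interval holds changes of the share in both directions, so a difference of this size was not detectable with 3 rats a group. The drugs were given at the same dose but a different number of times a day, so their values stand side by side and were not tested against each other, and both treated groups were compared with the same untreated obese rats.

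The ratios gave the same order. For GEC(Meis2+), which held 89.9% of endothelial nuclei, this order follows largely from the endothelial share and adds little to it. Per 100 GEC(Meis2+) nuclei there were 4.98, 5.09 and 4.86 GEC(Reln+) nuclei in RK43_4, RK45_4 and RK46_4, and 2.65, 4.20 and 3.42 in RK57_4, RK58_4 and RK61_4. Per 100 AA/LA/EA nuclei there were 89.6, 91.1 and 67.8 in the sGCact-treated and 42.0, 59.0 and 38.7 in the sGCstim-treated rats. Each sGCact-treated rat was thus above each untreated obese rat on both ratios, and the sGCstim-treated rats overlapped the untreated obese rats. The log2 ratios to GEC(Meis2+) and AA/LA/EA differed from untreated obese rats by 0.41 (95% interval -0.48 to 1.31) and 0.64 (-0.23 to 1.52) for sGCact, with limma adjusted p = 0.696 and 0.537. For sGCstim they differed by -0.14 (-1.03 to 0.75) and -0.19 (-1.07 to 0.69), with limma adjusted p = 0.842 for both. Limma called 0 of 24 ratios (0%) in either treated group, and unadjusted p-values under 0.05 numbered 1 after sGCact and 0 after sGCstim.

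Of all nuclei, the cluster made up 0.283%, 0.190% and 0.381% in RK43_4, RK45_4 and RK46_4 and 0.170%, 0.294% and 0.124% in RK57_4, RK58_4 and RK61_4. Both ranges lay inside that of the untreated obese rats or touched its upper end, where RK46_4 and RK16_4 had the same share to 3 digits. The log odds differed from untreated obese rats by 0.894 for sGCact (95% interval -0.350 to 2.14, limma adjusted p = 0.496) and by 0.503 for sGCstim (-0.741 to 1.75, adjusted p = 0.711). The median estimates over the 25 clusters were 0.62 and 0.50 in these comparisons, and by limma 0 clusters passed (0%), with 0 at an unadjusted p under 0.05. Of nuclei outside the proximal tubule, the shares were 0.655%, 0.630% and 0.565% in the sGCact-treated and 0.354%, 0.532% and 0.423% in the sGCstim-treated rats (exact permutation p against untreated obese rats 0.2 and 0.6).

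The depth of the members differed between rats more than between groups. The median member held 1217 UMIs, the quartiles were 900 and 1669, and the range was 449 to 4770. Median UMIs were 1364, 1472 and 1305.5 in RK1_4, RK3_4 and RK5_4, 768.5, 1896 and 1132.5 in RK7_4, RK9_4 and RK16_4, 1045, 1522 and 721.5 in RK43_4, RK45_4 and RK46_4, and 837, 1419.5 and 1461 in RK57_4, RK58_4 and RK61_4. The lean rats lay close together, and each obese group held at least 1 rat below them. Log2 median UMIs differed by -0.22 between untreated obese and lean rats (95% interval -0.94 to 0.50, limma adjusted p = 0.566), by -0.17 after sGCact (adjusted p = 0.837) and by 0.02 after sGCstim (adjusted p = 0.956). Between untreated obese and lean rats all 24 clusters with a value in every group had an estimate below 0 and 4 (16.7%) passed, against 1 (4.17%) after sGCact and 0 (0%) after sGCstim. Members held more UMIs at the median than GEC(Meis2+) nuclei of the same rat in 9 of 12 rats and more than AA/LA/EA nuclei in 6 of 12.

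Expressed genes per member followed the UMIs. Median genes ranged from 555 in RK7_4 to 1233 in RK9_4, and the log2 difference between untreated obese and lean rats was -0.17 (95% interval -0.71 to 0.38, limma adjusted p = 0.532), in a fit where 5 of 24 clusters (20.8%) passed. After sGCact and sGCstim the log2 differences from untreated obese rats were -0.10 (adjusted p = 0.931) and 0.13 (adjusted p = 0.969) by limma, where 2 (8.33%) and 0 (0%) of 24 clusters passed. Among members with 1000 to 1500 UMIs the rats lay closer together, with rat medians that averaged 886 genes for the lean group, 904 for untreated obese, 911 with sGCact and 912 with sGCstim, although only 1 to 28 members of a rat fell in that window.

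The percentage of mitochondrial UMIs, a sign of cytoplasmic RNA carried along with the nuclei, was low in some rats and high in others of each group. Median values were 2.96%, 2.50% and 0.117% in RK1_4, RK3_4 and RK5_4, 0.338%, 0.247% and 1.49% in RK7_4, RK9_4 and RK16_4, 2.04%, 0.124% and 1.65% in RK43_4, RK45_4 and RK46_4, and 1.52%, 0.135% and 0.137% in RK57_4, RK58_4 and RK61_4. The ranges of the 4 groups thus overlapped widely. On the log2(percent + 0.1) scale untreated obese rats differed from lean rats by -0.95 (95% interval -3.77 to 1.87, limma adjusted p = 0.805), sGCact-treated from untreated obese rats by 0.60 (adjusted p = 0.915) and sGCstim-treated by -0.47 (adjusted p = 0.883). Of the 24 clusters limma called 0 (0%) between untreated obese and lean rats, where 2 unadjusted p-values were under 0.05, 1 (4.17%) after sGCact and 0 (0%) after sGCstim.

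**Figure D5:**
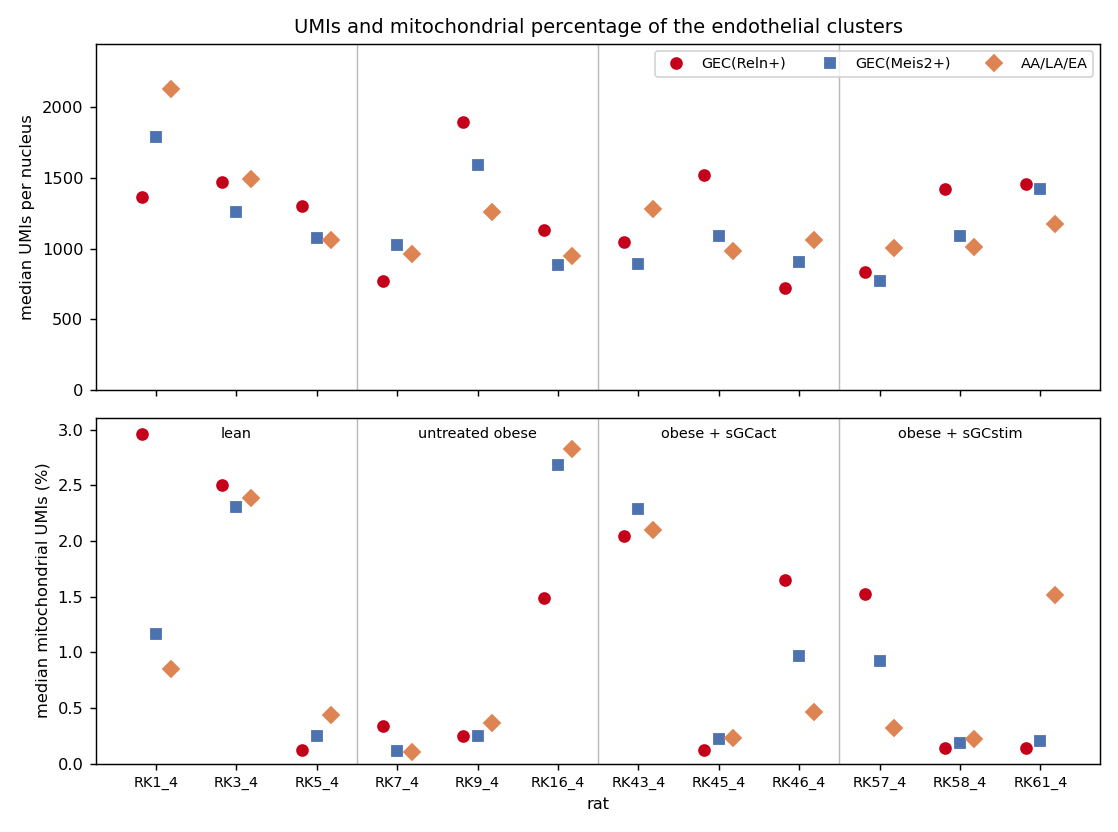
Median UMIs per nucleus (top) and median percentage of mitochondrial UMIs (bottom) of the 3 endothelial clusters in each rat, with vertical lines between the groups. Median UMIs of GEC(Reln+) (red circles) range from 721.5 in RK46_4 to 1896 in RK9_4, and its mitochondrial medians from 0.117% in RK5_4 to 2.96% in RK1_4.

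Since depth and mitochondrial RNA differed between rats, the endothelial share was recomputed within strata of each. Among endothelial nuclei with at least 1000 UMIs, GEC(Reln+) made up 2.11%, 1.52% and 1.42% in RK1_4, RK3_4 and RK5_4 and 1.23%, 3.72% and 5.79% in RK7_4, RK9_4 and RK16_4. RK7_4, with 2 members among 163 nuclei, then lay below all lean rats, the obese rat was higher in 6 of 9 comparisons, and the call was lost (log odds 0.670, limma adjusted p = 0.462, exact permutation p of the share 0.4). In this stratum the sGCact-treated rats RK43_4, RK45_4 and RK46_4 had 5.74%, 6.69% and 3.39%, and the sGCstim-treated rats RK57_4, RK58_4 and RK61_4 had 1.63%, 5.94% and 3.37%, so that all obese groups overlapped. Among endothelial nuclei under 1000 UMIs the obese rat was higher in 4 of 9 comparisons (exact permutation p = 0.8), with 12 endothelial nuclei in RK1_4 and 37 in RK9_4. The part of depth in the endothelial difference beyond these strata was not tested.

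Among endothelial nuclei with at most 1% mitochondrial UMIs the shares were 1.03%, 1.23% and 1.13% in RK1_4, RK3_4 and RK5_4 and 2.00%, 3.50% and 8.42% in RK7_4, RK9_4 and RK16_4. The groups did not overlap (9 of 9 comparisons, exact permutation p = 0.1), and the mean of 4.64% in untreated obese rats was 4.11 times that of 1.13% in lean rats. These shares rest on 10 of 969, 7 of 571 and 13 of 1154 nuclei in the lean rats. In the untreated obese rats they rest on 6 of 300, 15 of 428 and 17 of 202, and RK16_4 lifts the mean. In the same stratum the sGCact-treated rats had 4.29%, 5.17% and 3.36%, all 3 below RK16_4 and the last also below RK9_4, so that the 9 of 9 order over untreated obese rats fell to 5 of 9. The sGCstim-treated rats had 1.79%, 3.89% and 3.28%.

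Among endothelial nuclei with over 1% mitochondrial UMIs the shares were 3.11%, 1.51% and 0.867% in RK1_4, RK3_4 and RK5_4 and 21.1%, 2.56% and 2.57% in RK7_4, RK9_4 and RK16_4. Here the groups overlapped, since RK1_4 lay above RK9_4 and RK16_4, and the obese rat was higher in 7 of 9 comparisons (exact permutation p = 0.3). The value of RK7_4 rests on 4 of 19 nuclei and that of RK9_4 on 1 of 39. The part of mitochondrial RNA in the endothelial difference beyond these strata was not tested.

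The last columns of the annotation were scores for genes of the S phase, in which DNA is copied, and of the G2M phase, before and during division. The mean S score of the members ran from -0.0142 to 0.0000117 among lean rats and from -0.00109 to 0.0123 among untreated obese rats. With sGCact it ran from -0.0061 to 0.0105, and with sGCstim from 0.00609 to 0.0112. These ranges overlapped except that the sGCstim-treated rats lay above the lean rats, and the score of a single member varied with an SD of 0.0508. The untreated obese minus lean difference was 0.00996 (95% interval -0.0013 to 0.0212, limma adjusted p = 0.451), where limma called 0 of 24 clusters (0%) and 3 unadjusted p-values were under 0.05. After sGCact and sGCstim the score differed from untreated obese rats by -0.00362 (adjusted p = 0.740) and 0.00404 (adjusted p = 0.562) by limma.

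For the mean G2M score the untreated obese minus lean difference was -0.00097 (95% interval -0.0183 to 0.0164, limma adjusted p = 0.905), while 6 of 24 clusters (25.0%) passed, all 6 higher in obese rats. After sGCact and sGCstim it differed from untreated obese rats by -0.00821 (adjusted p = 0.528) and -0.0028 (adjusted p = 0.955) by limma. Phase calls placed 130 members (33.1%) in G1, 145 (36.9%) in S and 118 (30.0%) in G2M, a near even split that GEC(Meis2+) shared with 33.8%, 33.6% and 32.7%. Such calls are made for every nucleus from the sign and order of the scores, and no cycling was read from them. Between rats the part called G2M ranged from 16.7% in RK58_4 to 61.1% in RK5_4, whereas for GEC(Meis2+) it ranged from 28.4% to 35.6%, with at least 291 nuclei in each rat.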

How the data were processed

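Single-nucleus RNA-seq (Chromium 3′) of 12 kidneys was analysed from the authors' deposited annotation of nuclei. The authors aligned reads to rn6 with a pre-mRNA annotation (Cell Ranger 6 per the submitters' processing notes), corrected ambient RNA with SoupX, removed doublets with DoubletFinder, kept nuclei with 200 to 3000 genes and at most 15% mitochondrial UMIs, and merged, batch-corrected with Harmony and clustered them in Seurat. Deposited units were UMI counts and genes per nucleus, percent mitochondrial UMIs, and phase scores, while cluster names, phases and UMAP coordinates by the authors are other values. All per-sample columns were used, and the group of a rat came from the table, which does not tie it to a single sample of that group. Counts per gene were not analysed here.

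The rat was the replicate. Shares within all nuclei or the high-level type were fitted as log odds (0.5 added to the cluster, 1 to the total), ratios as log2 with 0.5 added, and medians as log2 (0.1 added to the mitochondrial percentage) for clusters with at least 5 nuclei in a rat. Fits used limma 3.58.1 in R 4.3.3 on all 12 rats (8 residual degrees of freedom) with Benjamini-Hochberg adjustment over clusters. Exact two-sided permutation tests over all splits of the compared rats stood beside them. Wilson intervals and UMAP neighbours were computed with scipy 1.17.1. edgeR 4.0.16 was an alternative. The fits of shares of all nuclei, of ratios and of measures per cluster were run on simulated data with the same spread in every cluster. The outcome is not given here, and the fit of shares within the high-level type was not simulated. Clusters named by rule are the endothelial ones and those bordering GEC(Reln+) on the UMAP. PTnov2 was named after its values were seen, and podocytes for their depth. Members, lists and tests were chosen with earlier results of these data known.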

Additional observations from a re-analysis of the deposited data

How the results depend on the processing

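No paired analysis was possible because the annotation gives no replicate number for a rat and names each by an animal identifier, and the planned fit with a replicate block was not run. Over 27 results, 404 of 462 alternative values kept direction and side of the threshold, 36 changed sign with 0 of them past the threshold, 21 lost the call and 1 gained it. The cause of each change was not tested. The rise of the endothelial share in untreated obese against lean rats was called in 11 of 20 alternatives (limma adjusted p 0.00665 to 0.462). Of these, 8 were fits that left out 1 rat. They included every fit that left out a treated rat, which is outside the compared groups. The log odds were 0.670 at 1000 or more UMIs and 0.838 with the compared groups alone. By edgeR with the type total as offset the log odds were 0.762 (adjusted p = 0.0533). Without RK7_4, RK9_4 and RK61_4 they were 0.837, and on the arcsine square root scale the difference was 0.0599. The offset, the fit without these 3 libraries and that without the 3 members far off on the UMAP were chosen after seeing the data. The AA/LA/EA ratio lost its call at 1000 or more UMIs (1.46, adjusted p = 0.586), at 1% or less mitochondrial UMIs (2.27, 0.0936) and with the compared groups alone (1.48, 0.138).

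Sign changes without a call were as follows. The obese minus lean log odds of all nuclei were 0.513 without proximal tubule nuclei, 0.847 at 1% or less mitochondrial UMIs and 0.262 with TMM library sizes. For sGCact they were -0.00129 at 1% or less, and for sGCstim -0.124 without proximal tubule nuclei and -0.0727 at 1% or less. The sGCstim endothelial log odds and GEC(Meis2+) ratio were 0.0262 and 0.0601 at 1000 or more UMIs, and the sGCact AA/LA/EA ratio was -0.222 at 1% or less. With at least 20 members a rat, which leaves RK16_4 as the only untreated obese rat, the sGCact mitochondrial difference was -0.753, the S score differences were -0.00105 (obese minus lean) and 0.00267 (sGCact), and the G2M differences 0.000998 (sGCact) and 0.00641 (sGCstim, 0.00543 at 1000 or more UMIs).

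With each rat left out in turn, obese minus lean ranges were -1.05 to 0.109 (all nuclei), 0.667 to 1.03 (endothelium), 0.924 to 1.48 (GEC(Meis2+) ratio), 1.31 to 1.68 (AA/LA/EA ratio), -0.564 to 0.0878 (UMIs), -0.446 to 0.129 (genes) and -0.00441 to 0.00364 (G2M score). For sGCact they were -0.485 to 0.166 (UMIs), -0.403 to 0.173 (genes) and -0.00807 to 0.000222 (S score). For sGCstim they were -0.0445 to 1.12 (all nuclei), -0.209 to 0.0123 (endothelium), -0.296 to 0.0288 (GEC(Meis2+) ratio), -0.286 to 0.365 (UMIs), -0.169 to 0.406 (genes), -1.40 to 0.204 (mitochondrial) and -0.0104 to 0.00216 (G2M score).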

Other observations

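All 9 obese rats were set against the 3 lean rats after their values were seen, so that the result describes these rats and is no independent support for the comparison of untreated obese with lean rats, whose rats it contains. Within the endothelium GEC(Reln+) made up 3.62% on average in the 9 obese rats and 1.54% in the 3 lean rats, and the obese rat was the higher in 27 of 27 comparisons between single rats. The exact two-sided permutation test gave p = 0.00455, the smallest that 9 rats against 3 allow. The mean of the 3 obese groups minus lean was 0.905 in log odds (SE 0.162, limma adjusted p = 0.00299), an odds ratio of 2.47, in a fit where 2 of 23 clusters (8.7%) passed. The log2 ratios to GEC(Meis2+) and AA/LA/EA were 1.27 (limma adjusted p = 0.022) and 1.63 (adjusted p = 0.00491) higher, and 5 of 24 ratios (20.8%) passed. Of all nuclei the difference was 0.0268 in log odds (limma adjusted p = 0.977).

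The lowest of the 9 obese rats was RK57_4 with 2.43% of endothelial nuclei, and the highest lean rat was RK1_4 with 2.15%. Their 95% Wilson intervals, 1.60% to 3.69% and 1.61% to 2.86%, overlapped, so that these neighbours did not differ beyond counting error. The endothelial type as a whole made up 5.94% of all nuclei on average in the 9 obese rats and 11.8% in the lean rats, with the obese rat higher in 1 of 27 comparisons (exact permutation p = 0.0182), and the part of this fall in the share of GEC(Reln+) was not tested.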
